A study of Homo sapiens with 8 samples.

Results

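Axon guidance ligands and receptors are the ephrins and their Eph receptors, the semaphorins with plexins and neuropilins, the netrins with DCC, neogenin and the UNC5 receptors, and the slits with their Robo receptors. The genes were chosen by symbol: those starting with EPHA, EPHB, EFNA, EFNB, SEMA, PLXN or UNC5, and a fixed set of neuropilin, Robo, slit, netrin, neogenin and DCC genes. This gave 70 genes of 18244 measured: 8 ephrins, 13 Eph receptors, 20 semaphorins, 11 plexins and neuropilins, 10 netrins and netrin receptors, and 7 slits and Robo receptors. The remaining gene, UNC50, shares only its first letters with the UNC5 receptors and encodes an unrelated membrane protein. UNC5CL is counted with the netrin receptors by its symbol only. EPHB2, an Eph receptor gene, was not among the genes measured this way, so nothing here describes it.

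A549 and PC9 are established cell lines from human lung adenocarcinomas, and their RNA was measured on single-colour arrays. Cells were infected with retrovirus carrying EN2, a homeobox transcription factor gene of midbrain and hindbrain development, or with the Neo vector as control, and stable cells were selected with the drug the labels spell genemycin. The groups were A549 with EN2, A549 with vector, PC9 with EN2 and PC9 with vector, with 2 arrays each. The labels do not say whether the selected cells were pools or clones, or whether the 2 arrays of a group came from separate cultures, so p-values measure only the spread between these arrays, which may be technical.

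These families work as short-range and secreted cues that tell a growing axon or a migrating cell to turn, stop or let go. Ephrins are held on the surface of a cell, the A class by a lipid anchor and the B class by a transmembrane segment, and they activate Eph receptor tyrosine kinases on the neighbouring cell while signalling back into their own. Semaphorins act on plexins, with neuropilins as co-receptors for most secreted class 3 semaphorins. Netrins bind DCC, neogenin and UNC5 receptors, and slits bind Robo receptors. In epithelia the same genes take part in cell sorting, junctions, branching and migration. In the chick tectum, engrailed genes shape the graded expression of ephrin-A genes.

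All values are log2 intensities, and a gene is its brightest probe set by the mean of the 8 arrays. Array medians lay between 6.33 and 6.35 for A549 and between 6.10 and 6.11 for PC9. Background was limited on each array by the level that 95% of its 100 ERCC spike-in controls do not exceed, which was 4.34 to 4.43 on A549 arrays and 3.85 to 4.0 on PC9 arrays. A gene was counted as above background in a group when both arrays passed that limit. Of 6 epithelial markers all 6 were above background in all groups. Of 17 markers of leukocytes, endothelium, fibroblasts and neurons, PTPRC, LYZ, DCN and LUM were below it in all groups. The others were above it in at least 1 group, such as CDH5 (6.17 to 6.41) and MAP2 (6.80 to 7.57) in PC9. None of the 17 passed the test with EN2 in either line. Their summed log2 level was 91.88 and 91.99 in A549 with EN2, against 91.76 and 92.25 with vector. In PC9 it was 91.32 and 92.98 with EN2, against 92.30 and 92.71 with vector. EN2 itself read 7.71 and 7.62 in A549 with EN2, against 6.48 and 6.57 with vector, a 2.21-fold rise (log2 change 1.15 ± 0.091 SE, limma adjusted p = 0.00028). In PC9 it read 6.24 and 6.39 with EN2, against 5.86 and 5.78 with vector, a change of 0.50 that did not pass (adjusted p = 0.0801). A second, dimmer probe set of EN2 passed in neither line (0.050 in A549 and 0.16 in PC9).

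By their brightest probe sets, 61 of the 70 guidance genes were above background in A549 with EN2, 62 in A549 with vector, 59 in PC9 with EN2 and 58 in PC9 with vector. Above background in all 4 groups were 56 genes. DCC, EPHA3, EPHA5, EPHA6, ROBO2 and SEMA3D were below it in all groups by every probe set. Thus DCC, the classical netrin receptor, and ROBO2, a neuronal slit receptor, gave no readable level in either line.

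The first comparison asked which guidance genes differed between EN2 and vector cells in A549. Of the 70, none rose and 3 fell: the transmembrane ephrin gene EFNB2, the plexin gene PLXNB2 and the slit gene SLIT3. The other 67 did not pass the test by their brightest probe set. Of their other probe sets, 1 each of PLXNA4, SEMA3B and SEMA3C passed over all probe sets, higher for PLXNA4 and lower for SEMA3B (−0.48) and SEMA3C (−0.66). That of PLXNA4, which encodes a semaphorin receptor, read 5.69 and 5.38 with EN2, against 5.02 and 4.67 with vector (0.69, limma adjusted p = 0.0319). It was below background in PC9, and on the A549 EN2 arrays it was brighter than the probe set chosen for the gene (5.09 and 5.31). The 3 called are 4.29% of the 70, against 2.72% of all 18244 genes in this comparison. By direction, 1.15% of all genes fell and 1.57% rose. The median log2 change of the 70 was −0.019, beside −0.0015 over all genes.

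EFNB2 encodes ephrin-B2, a transmembrane ligand of EphB receptors and EphA4 that is best known as a marker of arterial endothelium. It read 7.90 and 7.87 in A549 with EN2, against 8.57 and 8.52 with vector. Both EN2 arrays lay below both vector arrays. The gene fell 1.58-fold (log2 change −0.66 ± 0.13 SE, limma adjusted p = 0.0291). All 4 of its probe sets were lower with EN2, from −0.32 to −0.66, and the brightest alone passed when every probe set was tested. In PC9 it read 8.36 and 8.06 with EN2, against 8.50 and 8.13 with vector, with overlapping arrays (log2 change −0.10, adjusted p = 1).

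PLXNB2 encodes plexin-B2, a receptor of class 4 semaphorins. It read 9.01 and 8.93 in A549 with EN2, against 9.46 and 9.51 with vector, so the groups did not overlap. It fell 1.43-fold (log2 change −0.51 ± 0.076 SE, limma adjusted p = 0.00887). All 4 probe sets were lower and 3 passed. Its brightest probe set is of a type that may also bind other transcripts, and a probe set without that mark changed by −0.49 (adjusted p = 0.0268 over all probe sets). PLXNB2 in PC9 read 9.66 and 9.60 with EN2, against 9.67 and 9.83 with vector (log2 change −0.12, adjusted p = 0.909).

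SLIT3 encodes a secreted Robo ligand. Its only probe set read 6.61 and 6.59 in A549 with EN2, against 7.26 and 7.31 with vector, again without overlap. It fell 1.61-fold (log2 change −0.68 ± 0.12 SE, limma adjusted p = 0.0202). SLIT3 was below background on all 4 PC9 arrays, at 3.27 and 3.36 with EN2 and 3.21 and 3.59 with vector, so a PC9 change cannot be read.

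**Figure D1:**
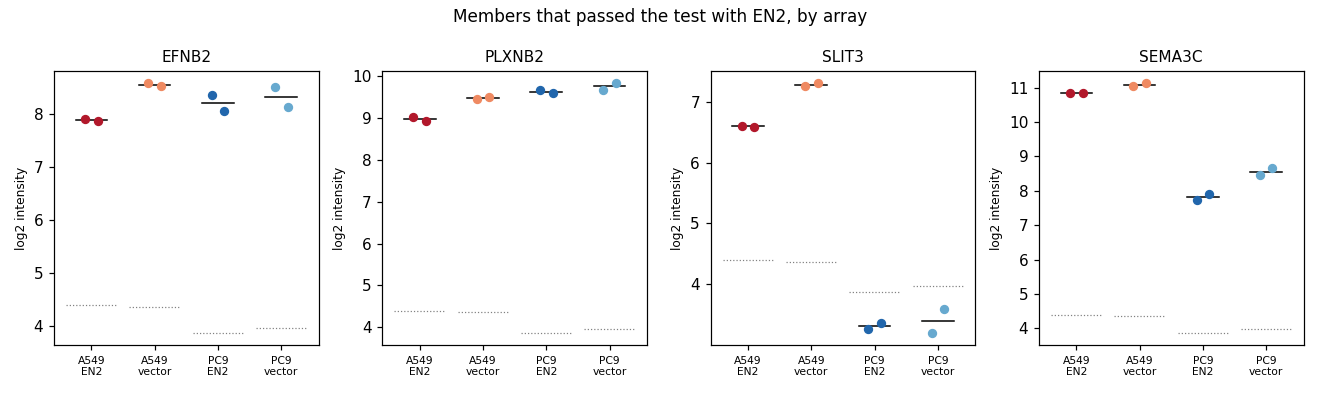
Log2 intensity of EFNB2, PLXNB2, SLIT3 and SEMA3C on each of the 8 arrays (points), with the group mean (black line) and the mean spike-in limit of the group (dotted line). The A549 EN2 arrays of EFNB2 (7.90 and 7.87), PLXNB2 and SLIT3 lie below the A549 vector arrays, SEMA3C is lower with EN2 in PC9 (7.73 and 7.90 against 8.46 and 8.66), and SLIT3 is below the limit in PC9.

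The call of EFNB2 ended without any 1 of the 4 A549 arrays (log2 change −0.69 to −0.64, adjusted p = 0.0763 to 0.163), and so did that of SLIT3 (−0.71 to −0.66, adjusted p = 0.054 to 0.162). PLXNB2 lost its call without A549 vector replicate 2 (−0.49, adjusted p = 0.0767) and in a fit of the A549 arrays alone (−0.51, adjusted p = 0.0754). Control signals moved with the A549 groups. The 18S rRNA probe sets read 11.66 and 12.12 with EN2, against 12.44 and 12.74 with vector, and the actin 3' minus 5' difference was 0.98 and 0.88 with EN2, against 0.79 and 0.78 with vector. None of the 3 passed in a fit that took the 18S rRNA signal as covariate, at −0.78 for EFNB2, −0.55 for PLXNB2 and −0.63 for SLIT3 (adjusted p = 0.665, 0.449 and 0.806). EN2 did not pass in that fit either (1.11, adjusted p = 0.13). Since the 18S rRNA signal did not overlap between the A549 groups, that fit can hardly separate it from EN2. Of the epithelial markers, CDH1, EPCAM, KRT19 and KRT18 fell in the same comparison, by 1.11, 0.77, 0.70 and 0.20 on the log2 scale. The summed log2 level of the 6 was 60.66 and 61.13 with EN2, against 63.72 and 63.97 with vector. The part of these signals in the guidance gene changes was not tested.

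The same comparison in PC9 gave 1 called guidance gene of 70. SEMA3C, which encodes a secreted class 3 semaphorin that acts through neuropilins and plexins, fell, none rose and 69 did not pass. That is 1.43% of the 70, against 0.367% of all genes, and 0.219% of all genes fell in PC9. The median log2 change of the 70 in PC9 was −0.0084, beside 0.0040 over all genes.

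SEMA3C read 7.73 and 7.90 in PC9 with EN2, against 8.46 and 8.66 with vector. Both EN2 arrays lay below both vector arrays. It fell 1.68-fold (log2 change −0.75 ± 0.087 SE, limma adjusted p = 0.00666). All 6 probe sets were lower with EN2 in PC9, and 3 passed when every probe set was tested. The dimmest of the 6 was below background in PC9 in both groups.

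In A549 SEMA3C read 10.84 and 10.85 with EN2, against 11.05 and 11.13 with vector. Its change there was −0.24 and did not pass (adjusted p = 0.189), although the groups did not overlap and all 6 probe sets were lower. Of the A549 probe sets only the dimmest passed (−0.66, adjusted p = 0.00977 over all probe sets). The change in A549 minus that in PC9 was 0.51 ± 0.12 and was not called (adjusted p = 0.132). The PC9 call ended without PC9 EN2 replicate 1 (−0.66, adjusted p = 0.0801), without PC9 vector replicate 2 (−0.65, adjusted p = 0.0602) and on the PC9 arrays alone (−0.75, adjusted p = 0.0944). It held with the 18S rRNA covariate (−0.75, adjusted p = 0.00571), but that fit could hardly move it. The 18S rRNA signal was nearly flat over the PC9 arrays (6.05 to 6.10), so this is no test of the PC9 call.

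**Figure D2:**
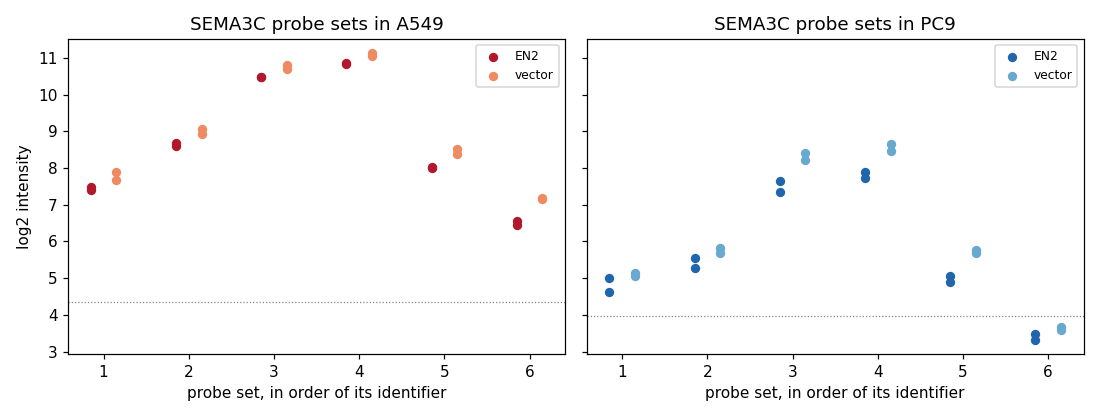
Log2 intensity of the 6 probe sets of SEMA3C in A549 (left) and PC9 (right), with 2 EN2 and 2 vector arrays per probe set and the mean spike-in limit of the vector arrays as a dotted line. Every probe set is lower with EN2 in both lines by its mean. The brightest, number 4, changed by −0.24 in A549 and −0.75 in PC9, and number 6 lies below the limit in PC9.

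RefSeq gives a promoter window for each of these 4 genes, and for SEMA3C it gives 2 transcription starts. They are printed so that the upstream sequence of the genes that fell can be read beside their values. Each is the 250 bases before the start on build GRCh38.p14, 5′ to 3′ in the direction of the gene, and all 4 genes lie on the minus strand. Capitals mark CCAAT (or ATTGG on the other strand), a common core promoter element, and TAATTG (or CAATTA), a core that many homeodomains bind. Both marks were chosen after the windows had been seen. The windows are at chr13:106535663-106535912 for EFNB2, chr22:50301670-50301919 for PLXNB2, chr5:169301140-169301389 for SLIT3, and chr7:80922390-80922639 and chr7:80919052-80919301 for the starts of SEMA3C.
EFNB2: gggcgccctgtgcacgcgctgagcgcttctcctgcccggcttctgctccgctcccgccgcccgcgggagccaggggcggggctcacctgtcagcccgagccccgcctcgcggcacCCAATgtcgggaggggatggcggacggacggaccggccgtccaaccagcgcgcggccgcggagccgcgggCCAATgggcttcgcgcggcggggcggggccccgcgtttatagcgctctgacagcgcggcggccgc
PLXNB2: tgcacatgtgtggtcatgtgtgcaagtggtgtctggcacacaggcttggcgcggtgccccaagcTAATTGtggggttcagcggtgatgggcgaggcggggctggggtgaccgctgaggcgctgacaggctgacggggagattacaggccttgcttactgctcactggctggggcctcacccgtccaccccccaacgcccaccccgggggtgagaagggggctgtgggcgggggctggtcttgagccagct
SLIT3: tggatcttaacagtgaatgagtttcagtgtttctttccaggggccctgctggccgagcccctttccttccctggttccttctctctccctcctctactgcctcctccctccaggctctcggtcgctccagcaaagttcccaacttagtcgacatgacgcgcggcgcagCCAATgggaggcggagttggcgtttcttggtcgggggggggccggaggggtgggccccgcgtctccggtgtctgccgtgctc
SEMA3C, start 1: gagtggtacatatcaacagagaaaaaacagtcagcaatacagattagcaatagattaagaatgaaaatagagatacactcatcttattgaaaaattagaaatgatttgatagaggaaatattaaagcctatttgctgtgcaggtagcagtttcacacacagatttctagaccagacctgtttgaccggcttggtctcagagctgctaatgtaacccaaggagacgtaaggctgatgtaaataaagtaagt
SEMA3C, start 2: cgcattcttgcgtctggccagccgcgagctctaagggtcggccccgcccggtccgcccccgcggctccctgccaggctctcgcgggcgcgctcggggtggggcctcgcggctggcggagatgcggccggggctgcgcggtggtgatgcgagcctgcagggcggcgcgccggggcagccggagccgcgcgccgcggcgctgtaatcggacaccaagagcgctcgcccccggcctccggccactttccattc

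The EFNB2 window had 78.4% G and C with 40 CpG sites, and that of PLXNB2 had 66.4% with 12. SLIT3 had 62.8% with 16 CpG sites. The windows of SEMA3C differed widely, with 36.4% and 2 CpG sites at start 1 and 77.6% and 39 at start 2. The median over all 35114 windows of this length was 58.0% and 11 CpG sites. EFNB2 held CCAAT at 2 places and SLIT3 at 1, as did 32.0% of all windows on either strand. PLXNB2 held TAATTG, as did 6.70% of all windows. The homeodomain cores TAATTA and TAATNA, searched on both strands, were in none of these 5 windows. TAATTA was in 4.35% of all windows, and TAATNA, which includes it, in 21.8%. A RefSeq window was found for 60 of the 70 guidance genes. Of these 60, EPHA5 and ROBO3 held TAATTA and 10 held TAATNA in any of their windows. These counts are per gene and the shares above per window, so they cannot be set against each other. A match describes these letters only, and the position of the array probes relative to either start of SEMA3C was not analysed here.

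The guidance genes that did not pass are given by family, ligands before receptors. Among the 8 ephrins, the A549 changes ran from −0.66 for EFNB2 to 0.94 for EFNA1, which encodes a lipid-anchored ligand of EPHA2. EFNA1 read 10.41 and 10.23 with EN2, against 9.82 and 8.95 with vector. The groups did not overlap, but the vector arrays lay far apart, and the gene did not pass (adjusted p = 0.0544). After quantile normalisation EFNA1 passed narrowly (0.96, limma adjusted p = 0.0495). Without A549 vector replicate 1, which leaves only the lower vector array (8.95), it was at 1.38. Its size thus depends on which vector array is kept. Both probe sets of EFNA1 were higher with EN2, at 0.94 and 0.91. EFNA5 was at −0.30 (adjusted p = 0.0887) and EFNA3 at 0.28 (adjusted p = 0.268) in A549. In PC9 the 8 ephrins lay between −0.20 and 0.092.

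The 13 Eph receptors gave no call, with A549 changes of −0.19 to 0.23 and PC9 changes of −0.14 to 0.27. EPHA2, a receptor that is abundant in many carcinomas, was at 0.23 in A549 and 0.19 in PC9 (adjusted p = 0.287 and 0.845). EPHB6, which encodes a receptor without kinase activity, read 8.10 and 8.12 in PC9 with EN2, against 7.87 and 7.86 with vector (0.25, adjusted p = 0.58). EPHA4, which binds ephrins of both classes, was at 0.27 in PC9 (adjusted p = 0.864).

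Among the 20 semaphorins, 19 did not pass in PC9 and none passed in A549. SEMA4G, a membrane-bound class 4 member, read 4.78 and 4.79 in A549 with EN2, against 5.12 and 5.12 with vector (−0.34, adjusted p = 0.0567). In PC9 SEMA4G was below background. SEMA5A, a transmembrane semaphorin with thrombospondin repeats, read 6.88 and 7.01 in PC9 with EN2, against 7.24 and 7.43 with vector (−0.40, adjusted p = 0.224). In A549 4 of its 5 probe sets, the brightest included, were below background. The other read 4.85 and 4.58 with EN2, against 4.73 and 4.60 with vector, and changed by 0.051. SEMA3B, secreted and often silenced in lung cancer, was at −0.24 in A549 (adjusted p = 0.147). All 3 of its probe sets were lower there, and another one passed over all probe sets (−0.48, adjusted p = 0.0233). With the mean of its probe sets SEMA3B passed too (−0.42, adjusted p = 0.035).

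Of the 11 plexins and neuropilins, PLXNC1, the receptor of SEMA7A, read 5.53 and 5.47 in A549 with EN2, against 5.06 and 4.86 with vector. Its change of 0.54 did not pass (adjusted p = 0.053). After quantile normalisation PLXNC1 passed (0.58, limma adjusted p = 0.0381). PLXNA2 was at −0.32 in PC9 (adjusted p = 0.363) and PLXNB3 at −0.14 in A549 (adjusted p = 0.438). The neuropilin genes NRP1 and NRP2, which encode the co-receptors of SEMA3C, were at −0.0093 and −0.022 in A549 and at 0.14 and −0.18 in PC9.

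Netrins and their receptors gave no call in 10 genes, with A549 changes of −0.11 to 0.23. NTN4, a basement membrane netrin that binds laminin, was at −0.29 in PC9 (adjusted p = 0.662). NTN1 was at 0.23 in A549 (adjusted p = 0.40) by its brightest probe set, near or below background there. Its other probe set read 5.47 and 5.52 in A549 with EN2, against 5.49 and 5.24 with vector, above background and not passing. DCC was below background. Of the 7 slits and Robo receptors, ROBO1, a receptor of SLIT3, read 9.63 and 9.62 in A549 with EN2, against 9.13 and 9.21 with vector. Its change of 0.46 did not pass (adjusted p = 0.0861). SLIT2 was at −0.19 in PC9 (adjusted p = 0.882) and SLIT1 at −0.13 in A549 (adjusted p = 0.611). UNC50 was at −0.040 in A549 and 0.030 in PC9.

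**Figure D3:**
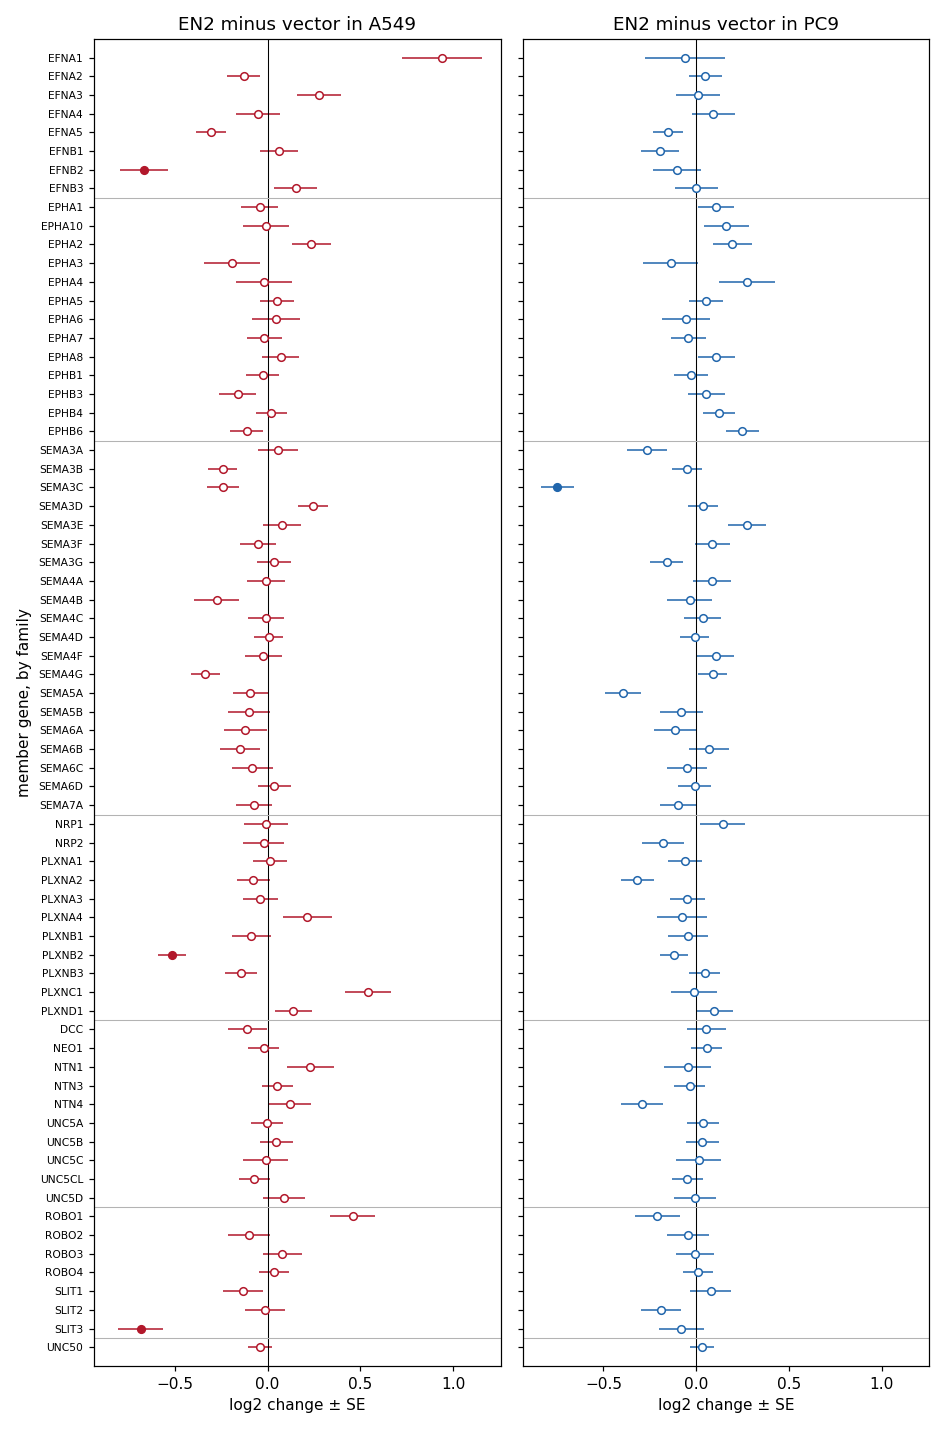
Log2 change with EN2 (± SE of the limma fit) of the 70 genes in A549 (left) and PC9 (right), grouped by family from ephrins to slits and Robo receptors, with UNC50 last. Filled points passed at an adjusted p below 0.05: EFNB2, PLXNB2 and SLIT3 in A549 (−0.66, −0.51 and −0.68) and SEMA3C in PC9 (−0.75).

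In A549 the groups did not overlap, with EN2 higher, for 7 of the 70 genes (10.0%), beside 24.1% of all genes. With EN2 lower it was 20 (28.6%), beside 23.5%. In PC9 it was 9 genes with EN2 higher (12.9%) and 14 with EN2 lower (20%), beside 17.7% and 15.2% of all genes.

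The difference between the changes in the lines asked which guidance genes depend on the line. No member passed in limma's test (adjusted p below 0.05), beside 0.784% of all genes (0.46% up and 0.323% down). An unadjusted p below 0.05 was found for 11 of the 70, beside 2175 of all 18244 genes. Leaving SLIT3 aside, whose PC9 change cannot be read, the differences ran from −0.56 for EFNB2 to 1.0 for EFNA1. By this test a call in 1 line and not in the other is not shown to be a difference for EFNB2 (−0.56 ± 0.18), PLXNB2 (−0.39 ± 0.11) or SEMA3C (0.51 ± 0.12).

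Genes that carry the signal inside the cell were described beside the receptors. Of 55 cytoplasmic effectors, 2 rose, 2 fell and 51 did not pass in A549, beside 1.57% of all genes that rose and 1.15% that fell. None of the 55 passed in PC9, beside 0.367% of all genes. The median was 0.057 in A549 and 0.036 in PC9. RND1, which encodes a protein that binds plexins, rose to 9.03 and 9.04 with EN2, against 8.63 and 8.47 with vector (0.48, adjusted p = 0.0287). ABL1, a kinase whose fly homologue acts in Robo signalling, rose by 0.35 (adjusted p = 0.0467). Of the 4 probe sets of ABL1, 3 were higher with EN2 and 0 passed when every probe set was tested. SRC, a kinase activated downstream of several guidance receptors, fell by 0.73 (adjusted p = 0.00173), and FES, a kinase downstream of semaphorin signalling, fell by 0.40 (adjusted p = 0.0297).

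Of 35 other cues, co-receptors and sheddases, SDC1, the heparan sulfate core protein syndecan-1, fell by 0.36 in A549 (adjusted p = 0.0288). None of the 35 rose there, 34 did not pass and none passed in PC9, beside the same shares of all genes. All 5 of these A549 calls, in RND1, ABL1, SRC, FES and SDC1, ended with the 18S rRNA covariate. Without 1 array, SRC kept its call in all 8 fits and FES in none (−0.44 to −0.36). ABL1 kept it only without PC9 EN2 replicate 2 (0.32 to 0.38 over the fits). RND1 lost it without either A549 EN2 array, A549 vector replicate 2 or either PC9 vector array (0.40 to 0.49). SDC1 lost it without A549 EN2 replicate 1, either A549 vector array or either PC9 EN2 array (−0.36 to −0.29). The medians were −0.0004 in A549 and −0.025 in PC9.

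The vector controls of the lines differed far more in guidance genes than EN2 and vector cells did. Of the 70 genes, 55 passed, with 34 higher in A549 and 21 higher in PC9. That is 78.6%, against 75.8% of all 18244 genes, so the share is near that of the table as a whole. By direction, 46% of all genes were higher in A549 and 29.7% in PC9, beside 48.6% and 30% of the 70. More than 2-fold differences that passed were found for 22 genes (31.4%), beside 22.9% of all genes. How the scales of the lines compare is not known, since their value distributions differ. After quantile normalisation over all arrays the median of all genes moved by 0.20, from 0.17 to −0.024, and 23 guidance genes were higher and 24 lower in A549. The share of calls that were higher in A549 was then 48.9%, against 61.8% before. Of the 55 calls 44 kept their direction and call, 11 lost it and none turned round. The 11 were EPHA3, EPHA6, EPHA7, PLXNB3, PLXNC1, ROBO4, SEMA3E, SEMA5B, SEMA6D, SLIT1 and UNC5CL.

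SLIT3 and ROBO1, a ligand and its receptor, were both higher in A549. ROBO1 read 9.13 and 9.21 in A549 with vector, against 4.56 and 4.36 in PC9 with vector, where it was just above background. The difference was 4.71 ± 0.12 on the log2 scale (SE, limma adjusted p = 7.6e-10), or 26.2-fold, and all 3 probe sets passed in that direction. SLIT3 read 7.26 and 7.31 in A549, against 3.21 and 3.59 in PC9. It was at least 9.95-fold higher in A549 (adjusted p = 2.65e-09), with the dim line taken on each array at the higher of its own value and the spike-in limit. SLIT2 was also higher in A549, at 4.75 and 4.60, against 3.75 and 3.97 in PC9.

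The secreted class 3 semaphorins were split. By their brightest probe sets SEMA3B (−0.68) and SEMA3G (−0.37) were higher in PC9, while SEMA3A, SEMA3C, SEMA3E and SEMA3F were higher in A549. Other probe sets of SEMA3E were higher in PC9 (−1.73 and −0.55), and another of SEMA3G was higher in A549 (0.62). That of −1.73 read 5.40 and 5.33 in PC9, against 3.62 and 3.64 in A549, below background. SEMA3E lost its call after quantile normalisation. SEMA3A, a collapsing cue of growth cones, read 7.59 and 7.69 in A549, against 3.58 and 3.66 in PC9, below background, and was at least 12.7-fold higher (adjusted p = 9.7e-10). SEMA3C read 11.05 and 11.13 in A549, against 8.46 and 8.66 in PC9, a difference of 2.53 ± 0.087 (adjusted p = 5.6e-09). NRP1, the neuropilin that SEMA3A binds, read 10.45 and 10.38, against 7.95 and 7.64, a difference of 2.62 ± 0.12 (adjusted p = 3.74e-08). All 6 probe sets of NRP1 and all 6 of SEMA3C passed in the same direction. Their PC9 vector arrays are those of the EN2 comparison above.

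The netrins went opposite ways. NEO1, which encodes the receptor neogenin, read 9.21 and 9.19 in A549, against 5.36 and 5.37 in PC9. The difference was 3.83 ± 0.084 (adjusted p = 2.78e-10), with all 3 probe sets alike. NTN4 was higher in A549 by 1.43 ± 0.11 (adjusted p = 1.88e-06). NTN1, the secreted ligand of DCC and neogenin, read 4.34 and 3.99 in A549, against 7.16 and 7.05 in PC9. It was at least 6.72-fold higher in PC9 by its brightest probe set (adjusted p = 2.39e-08), while its other probe set, above background in both lines, differed by 0.30 the other way.

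Transmembrane semaphorins and Eph receptors were called on both sides. SEMA4B, SEMA4F and SEMA6B were higher in A549 (1.30, 0.81 and 1.07), and the genes with the largest differences toward PC9 follow. SEMA5A read 4.19 and 4.19 in A549, below background, against 7.24 and 7.43 in PC9, and was at least 7.89-fold higher in PC9 by that probe set, its brightest (adjusted p = 2.21e-09). All 5 of its probe sets passed in that direction, and the one above background in A549 differed by −1.42. SEMA4A, a class 4 semaphorin first studied in immune cells, read 5.04 and 5.08 in A549, against 7.50 and 7.62 in PC9 (−2.50 ± 0.10, adjusted p = 1.68e-08). EPHA1 read 4.78 and 4.84, against 7.21 and 7.41 (−2.50 ± 0.098, adjusted p = 1.39e-08), though its other probe set differed by −0.092 only and did not pass. EPHB6 read 5.46 and 5.31, against 7.87 and 7.86 (−2.48 ± 0.088, adjusted p = 6.54e-09).

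EPHA4 read 4.96 and 5.13 in A549, against 6.71 and 6.84 in PC9, a difference of −1.73 ± 0.15 (adjusted p = 3.67e-06) with 3 of 4 probe sets passing. EFNA4, a lipid-anchored ephrin, differed by −1.19 ± 0.12 and PLXNA3, a co-receptor for class 3 semaphorins, by −1.25 ± 0.093 (adjusted p = 8.53e-06 and 1.2e-06). SEMA4G completed the 8 highest and 8 lowest named differences, at least 2.22-fold higher in A549. In each of these 16 genes the 2 arrays of a line lay on the same side of both arrays of the other. They were chosen for the size of this same difference. Over all genes, the vector arrays did not overlap for 53.4% with A549 higher and 35% with PC9 higher, beside 61.4% and 30% of the 70. All 16 passed in the same direction after quantile normalisation.

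**Figure D4:**
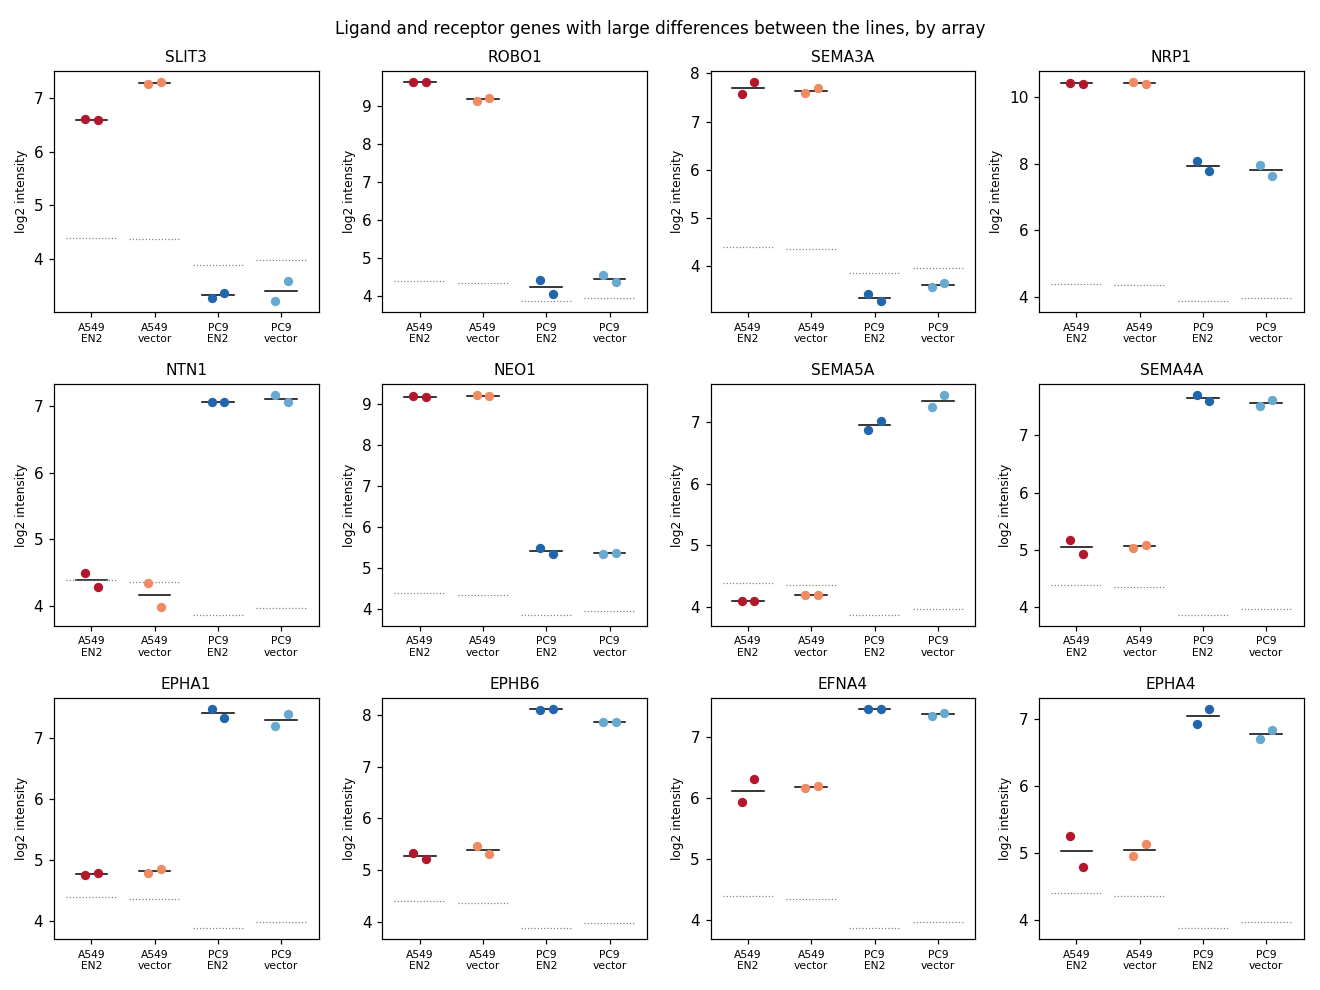
Log2 intensity of 12 of the 16 named genes on each of the 8 arrays, with group means (black lines) and the mean spike-in limit of each group (dotted lines). SLIT3, ROBO1, SEMA3A, NRP1 and NEO1 are higher in A549 (ROBO1 at 9.13 and 9.21 against 4.56 and 4.36 with vector), the other 7 are higher in PC9, and the EN2 arrays of all 12 lie on the same side as the vector arrays of their line.

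By family, 13 of 20 semaphorins were higher in A549 and 6 in PC9, with SEMA7A not called. Of 13 Eph receptors 6 were higher in A549 and 6 in PC9, with EPHB1 not called. EPHA2 differed most on the A549 side (0.98 ± 0.10), while EPHA3, EPHA5 and EPHA6 were below background in both lines, so their calls, like that of SEMA3D among the semaphorins, carry no readable level. Of the 64 guidance genes above background in at least 1 group, 30 were called higher in A549 and 21 in PC9. Of 8 ephrins, EFNA2 and EFNB3 were higher in A549 (0.85 and 1.03), EFNA3 and EFNA4 in PC9, and 4 did not pass. Of 11 plexins and neuropilins, NRP1, NRP2, PLXNB3 and PLXNC1 were higher in A549 and PLXNA1, PLXNA3, PLXNB1, PLXNB2 and PLXND1 in PC9. PLXNA2 and PLXNA4 did not pass by their brightest probe sets. The other PLXNA4 probe set named above was higher in A549 by 1.96 (limma adjusted p = 5.7e-07), but was below background in PC9. Among the 10 genes grouped as netrins and netrin receptors, NEO1, NTN4 and UNC5CL were higher in A549, NTN1 and UNC5A in PC9, and 5 did not pass. Of 7 slits and Robo receptors 5 were higher in A549 and none in PC9.

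**Figure D5:**
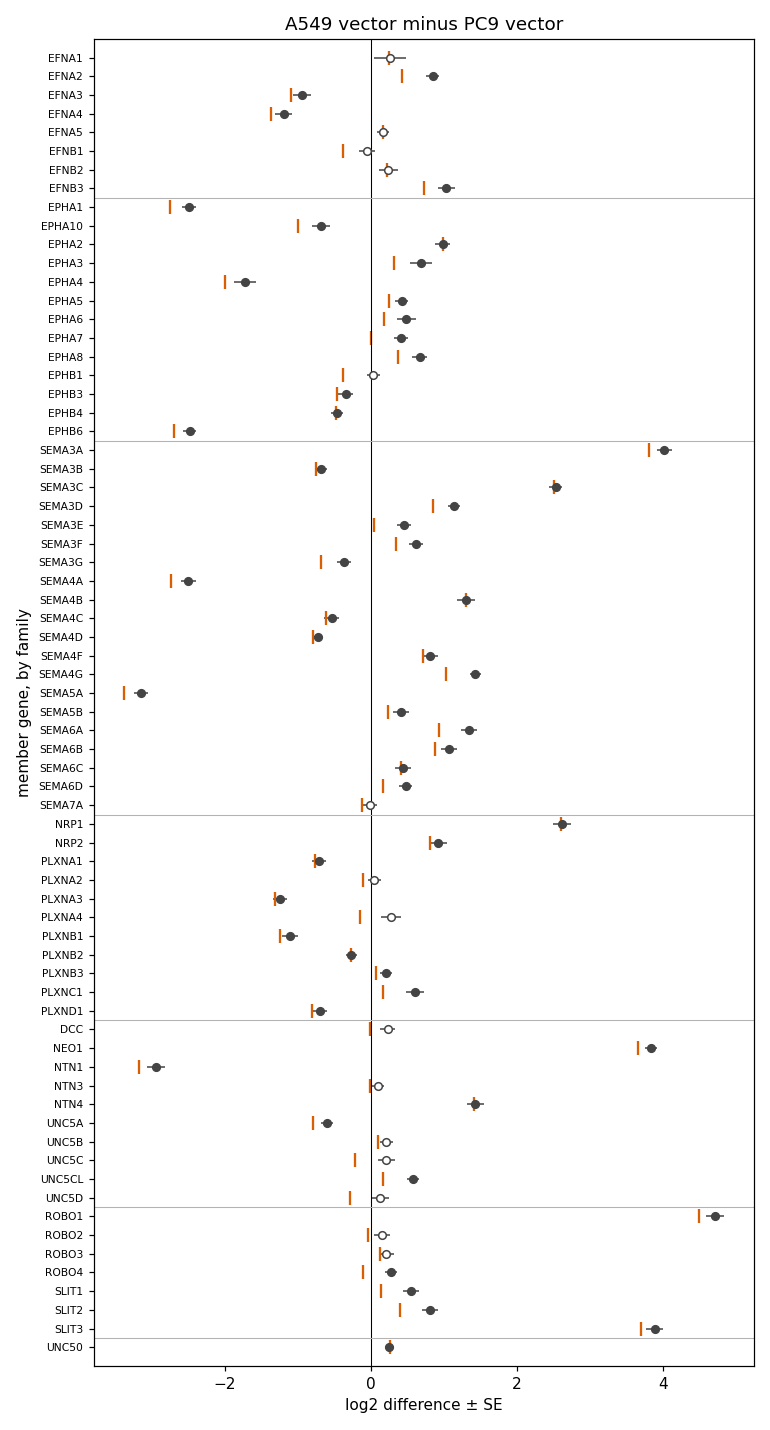
Log2 difference between the vector controls, A549 minus PC9 (± SE of the limma fit), of the 70 genes by family, with filled points for an adjusted p below 0.05 and orange bars for the value after quantile normalisation. ROBO1 (4.71) and NEO1 (3.83) stand far on the A549 side and SEMA4A (−2.50) and EPHB6 (−2.48) on the PC9 side. The points of SEMA3A, SLIT3, SEMA4G, NTN1, SEMA5A and SEMA6A, among others, rest on values below background in 1 line, so their size is not readable.

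The EN2 arrays gave the difference between the lines a second time in separate arrays. Of the 55 genes called between the vector controls, all 55 had the same sign between the EN2 arrays of A549 and those of PC9, and 53 passed there too. PLXNB3 and SEMA3G did not. The same count was not made over all genes, so it is not a result about guidance genes in particular. In all, 59 of the 70 passed between the EN2 arrays (84.3%), beside 75.7% of all genes. Of these 38 were higher in A549 and 21 in PC9, beside 45.8% and 29.9% of all genes. ROBO1 differed by 5.38 and NEO1 by 3.76 there, and SEMA4A by −2.59 and EPHB6 by −2.84, all above background in both lines.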

How the data were processed

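The 8 arrays were mapped to 4 groups of 2 by their titles. Per the submitters' processing notes RMA made the log2 values that the authors deposited for each probe set. The sources used here give neither its version nor which arrays were normalised together. Of 49495 probe sets, 45284 carried 1 symbol, 1333 several and 2878 none. Symbols were updated by Entrez identifier through RefSeq (GRCh38.p14), where 45214 matched. A gene was its brightest single-symbol probe set, with no filter on dim genes.

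With limma 3.58.1 in R 4.3.3, 4 group means were fitted across the 8 arrays together (lmFit, eBayes with an intensity trend). Residual degrees of freedom were 4, and tests were two-sided. Benjamini-Hochberg adjustment ran over all 18244 genes, and a gene was called below 0.05. An exact permutation test of 2 against 2 arrays cannot give a p below 0.333. On simulated data for the A549 comparison of 18244 genes the fit recovered 78.5% of genes changed by 0.5 and 99.9% of those changed by 1 on the log2 scale, with 14.2 false calls on average beside 200 changed genes.

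The guidance genes, lists and tests were chosen with earlier results of these data known. Named were all called members with EN2, up to 3 further members per family by smallest p, the 8 highest and 8 lowest readable differences between vector controls, and up to 6 called genes of each other list. Array counts limit the precision. Alternatives are given at the end.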

Additional observations from a re-analysis of the deposited data

Results flagged for a closer look

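No guidance gene differed between the lines in its EN2 change by the test of that difference. Of the 55 effectors and 35 other pathway genes, 3 did, beside 0.784% of all genes, and the cause was not tested. RND1 changed by 0.48 in A549 and −0.23 in PC9, a difference of 0.72 (limma adjusted p = 0.047). SRC changed by −0.73 in A549 and −0.083 in PC9, a difference of −0.64 (adjusted p = 0.0401). MET, the receptor tyrosine kinase that associates with plexin-B receptors, was at −0.14 in A549 and 0.30 in PC9, neither of which passed, and the difference was −0.45 (adjusted p = 0.0485). MET was named after its values were seen. Its call ended after quantile normalisation (limma adjusted p = 0.0734), median centring, with the mean of probe sets and with every probe set tested. It also ended among genes above the median level, without limma's intensity trend and with its robust variance option. Quantile normalisation (adjusted p = 0.0531), every probe set tested and no trend ended the RND1 call, and no trend ended that of SRC. With treat against a 1.2-fold change all 3 ended. All 3 calls ended with the 18S rRNA covariate (0.63, −0.41 and −0.52 for RND1, SRC and MET), and those of RND1 and MET ended without any 1 of the 8 arrays, with differences of 0.62 to 0.82 and −0.48 to −0.41. The SRC call ended without 7 of the 8 arrays in turn, A549 EN2 replicate 2 being the exception.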

How the results depend on the processing

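Of the 70 guidance genes, 3 passed in A549, 1 in PC9, none in the difference between the lines and 55 between the vector controls. In A549, 5 passed after quantile normalisation over all arrays: EFNB2, PLXNB2 and SLIT3 lower, and EFNA1 (0.96) and PLXNC1 (0.58) higher. PLXNC1 also joined the 3 called genes with limma's robust variance option, and SEMA4G joined them, lower, without its intensity trend. With the mean of all probe sets 5 passed: PLXNB2, SLIT3, SEMA3B and SEMA4G lower, and ROBO1 higher. EFNB2 at −0.46 lost its call there (limma adjusted p = 0.0758). None passed with limma's treat against a 1.2-fold change or with the 18S rRNA covariate. Leaving out the 2 A549 arrays with the outermost 18S rRNA signals left 1 array in each A549 group. EFNB2 was then at −0.71, PLXNB2 at −0.53 and SLIT3 at −0.67. In PC9, none passed with the mean of all probe sets, on the PC9 arrays alone or with treat. Without those 2 A549 arrays the PC9 change of SEMA3C was unchanged at −0.75. With an array left out, its lone partner assumed to vary like the other groups, the counts ran from 0 to 4 in A549, 0 to 1 in PC9, 0 to 1 for the difference and 52 to 57 between vector controls. The gene of the difference was EFNA1, without A549 vector replicate 1 (1.44). Between vector controls, 22 passed among the 29 guidance genes above the median level. With the 18S rRNA covariate none passed there, and EPHA4 (1.68) and NTN1 (1.56) turned sign. That signal was 11.66 to 12.74 in A549 and 6.05 to 6.10 in PC9, so this fit extrapolates far. No called change of EFNB2, PLXNB2, SLIT3 or SEMA3C turned sign under any alternative run. With the replicate number within each line as a block, 7 passed in A549 (EFNA1, PLXNC1 and ROBO1 higher, EFNB2, PLXNB2, SLIT3 and SEMA3C lower), 4 in the difference (EFNA1, EFNB2, ROBO1 and SEMA3C), 1 in PC9 and 56 between vector controls. Same-numbered arrays deviated together at r = 0.349 in A549 and 0.066 in PC9 across genes, which does not settle a pairing. The causes were not tested. Small differences of dim probe sets near the spike-in limit are not readable.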

Other observations

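Probe sets of the same guidance gene did not always point the same way between the lines. Of the 44 genes called between vector controls that had several probe sets, 12 had at least 1 probe set of the other sign, such as NTN1 (1 of 2), EPHB4 (4 of 5) and SEMA4D (4 of 5). The values of these genes describe their brightest probe set only.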
